A study of Gossypium barbadense and Gossypium hirsutum with 72 samples.

Results

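The comparison set nulliplex-branch seedlings of the 2 cultivated tetraploid cottons side by side. It used 6 mRNA libraries of the 36 in the series, which holds 72 libraries with its small RNAs. Gb1np was the G. barbadense line Xinhai16 and Gh1np was the G. hirsutum line 3798, each sampled as 3 replicates of shoot apex from seedlings with 2 leaves. Both lines are nulliplex branch, so flowers arise directly in leaf axils without a fruiting branch, and neither received a treatment. Members were chosen by species, branch type and stage from the sample labels, not by any measured value. The question was which transcripts differ between the species when branch type and leaf number are matched. For comparison, Gb1WT (Hai1, G. barbadense) and Gh1WT (Huazhong 94-3130, G. hirsutum) are normal-branch seedlings with 2 leaves, again with 3 libraries each, and share no library with the nulliplex-branch pair. Each species is represented by 1 nulliplex-branch line, so a difference of species and a difference of cultivar cannot be told apart in this pair. The lines are field-grown pure lines and not near-isogenic.

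A shoot apex holds the meristem, where stem cells divide, and the youngest leaves around it. In cotton the apex first makes leaves and vegetative branches, and later the buds that become fruiting branches or, in nulliplex lines, flowers at the leaf axils. Both species are allotetraploids, so that most genes exist as a pair of homeologous copies in the A and D subgenomes, and reads from near-identical copies can be hard to separate. All reads, those of G. barbadense included, were aligned to the G. hirsutum genome. A G. barbadense transcript that has diverged from the reference, a gene missing from one line and a gene that is not transcribed can therefore each give few or no reads. These cannot be told apart here. The gene models carry CotAD identifiers, and names are given only for those the study named by their Arabidopsis homologues.

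Reads were assigned to 52202 to 53094 gene models per library. Levels are given as RPKM, reads per kilobase of gene model scaled to 1000000 reads of the library, and at the depth of these libraries 1 RPKM over 1 kilobase stood for 24.6 to 28.1 reads. One library stood apart before any species comparison. Across 45024 genes, Gh1np replicate 2 correlated with the other Gh1np libraries at r = 0.927 and 0.931 on log2(RPKM + 1), whereas those correlated with each other at 0.966. The Gb1np libraries correlated with each other at 0.957 to 0.984, and libraries of different species at 0.850 to 0.907.

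Markers of dividing cells and of green leaf differed between libraries of the same line. The DNA sliding clamp gene PCNA2 was at 18.3, 62.9 and 16.8 RPKM in Gh1np and at 22.0, 10.4 and 36.6 RPKM in Gb1np. The carbonic anhydrase gene CA1, abundant in photosynthetic tissue, was at 1357, 104 and 1224 RPKM in Gh1np and at 734, 903 and 585 RPKM in Gb1np. Gh1np replicate 2 was thus highest of the 6 libraries for PCNA2 and lowest for CA1, and Gb1np replicate 3 leaned the same way within its line. All 6 genes of the dividing-cell list (PCNA2, ORC6, CYCD1;1, POK2 and a pair of SYN3 models) were detected in each library. Most of each sum was PCNA2, and the summed level was 13.8 to 47.6 RPKM in Gb1np and 20.7 to 79.7 RPKM in Gh1np. The 5 green leaf genes (CA1, GGR, TROL, a ferredoxin-related gene and a SOUL heme-binding gene) summed to 610 to 924 RPKM and 126 to 1369 RPKM, and most of each sum was CA1. Without CA1 the other 4 summed to 21.4 to 24.6 RPKM in Gb1np and to 12.4, 21.8 and 9.76 RPKM in Gh1np. Each of these 4 was highest of the Gh1np libraries in replicate 2, so CA1 alone of the list was low there. Libraries of the normal-branch seedlings differed too. Their dividing-cell genes summed to 17.8, 57.0 and 18.3 RPKM in Gb1WT and to 18.5, 32.6 and 9.58 RPKM in Gh1WT. Their green leaf genes summed to 1038 to 1176 RPKM in Gb1WT and 571 to 1282 RPKM in Gh1WT. SUC2 and HB-8, genes of phloem and vascular tissue, summed to 1.44 to 3.78 RPKM in Gb1np and 1.98 to 3.65 RPKM in Gh1np. SEP3, a floral organ identity gene, had no read in any of the 6. Markers of dividing and green tissue were thus present in each library and that of floral organs was absent. The part of their spread in the results below was not tested, and counts without Gh1np replicate 2 and Gb1np replicate 3 are given beside them.

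**Figure D1:**
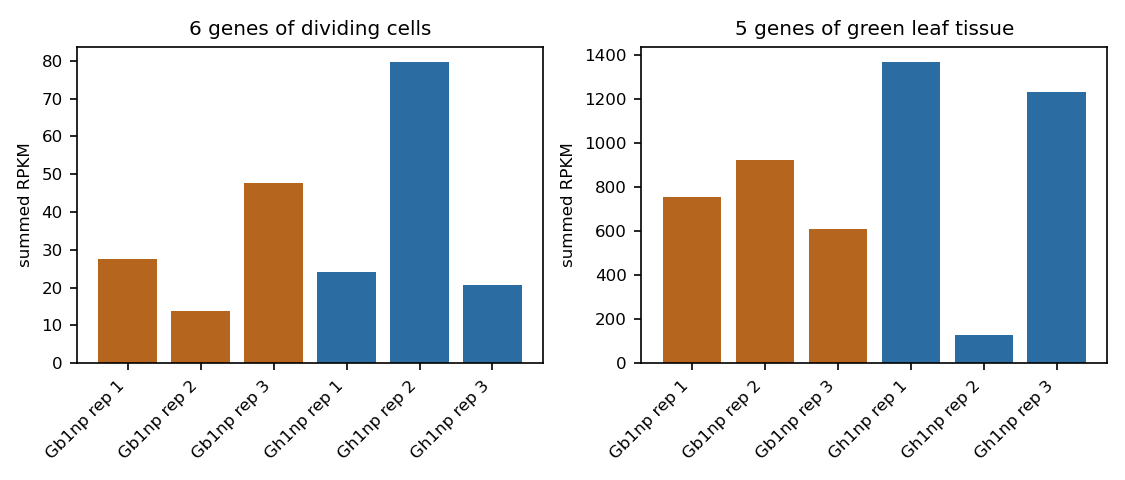
Summed RPKM of the dividing-cell genes (left) and the green leaf genes (right) in each library of Gb1np (brown) and Gh1np (blue), 1 bar per library. Gh1np replicate 2 is highest on the left, at 79.7 RPKM, where PCNA2 makes up most of each bar. It is lowest on the right, at 126 RPKM, where CA1 makes up most of each bar. The other 4 green leaf genes sum to 21.8 RPKM in it, the highest of the Gh1np libraries.

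The species differed at 640 genes, 1.42% of the 45024 tested, 280 higher in Gb1np and 360 lower. A gene was called a DEG when edgeR's quasi-likelihood test gave an adjusted p under 0.001 and the log2 fold change was over 1 in size, and fold changes are Gb1np over Gh1np. By direction, 0.622% were DEGs higher in Gb1np and 0.8% were DEGs lower. The differences were mostly large. The median size on the log2 scale was 3.81 for the higher DEGs and 4.26 for the lower ones, and 96 higher and 145 lower DEGs passed a log2 fold change of 5. For each of the 640 the groups of 3 libraries did not overlap, which a call on these same libraries makes near certain. Over all genes tested 21.3% were non-overlapping with Gb1np higher and 14.2% with Gb1np lower. Many of the 640 were close to an on and off pattern. No read was counted in Gh1np for 28 higher DEGs and in Gb1np for 42 lower ones, and 29 and 34 more had 1 to 3 reads over the 3 low libraries. A gene without a read in one group passed the filter only through the other, so its direction was fixed before the test. Only 134 higher and 142 lower DEGs had a mean over 1 RPKM in both groups.

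The number of DEGs depended on which library was left out. Without Gh1np replicate 2 there were 238 higher and 346 lower DEGs, of which 203 and 262 were among those of the full comparison, and without Gh1np replicate 2 and Gb1np replicate 3 there were 139 and 190. Leaving out Gb1np replicate 1, 2 or 3 left no DEG at this threshold, with 9806, 10925 and 12530 genes at an unadjusted p under 0.05, and leaving out Gh1np replicate 1 or 3 left 4 and 0 higher and 5 and 3 lower. DESeq2 on all 6 libraries called 1663 higher and 2269 lower genes, among them all 640, and limma on log2(RPKM + 1) called 469 and 566.

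**Figure D2:**
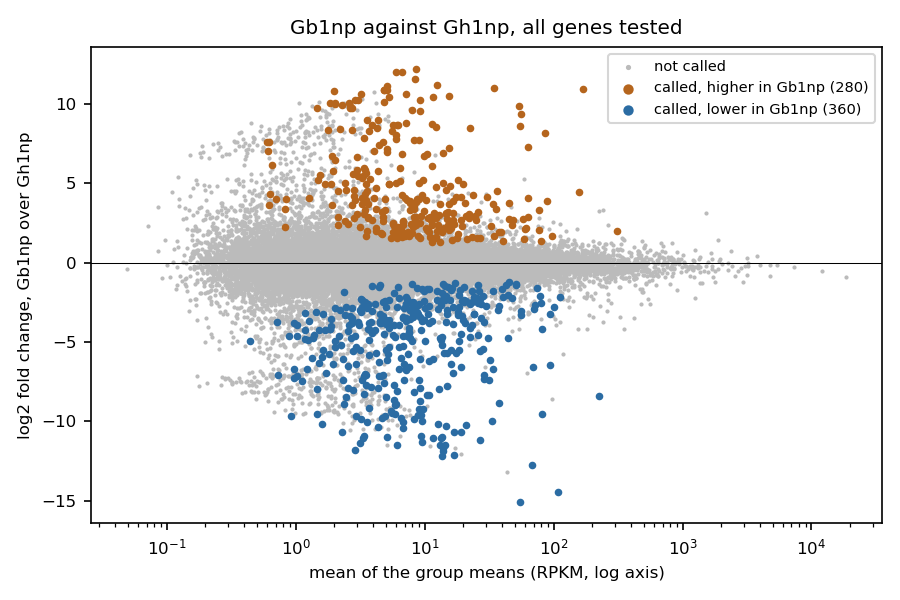
Log2 fold change of Gb1np over Gh1np (vertical axis) against the mean of the group means in RPKM (horizontal log axis) for the 45024 genes tested, 1 point per gene. The 280 higher DEGs (brown) and 360 lower DEGs (blue) reach log2 fold changes of 12.2 and -15.1, and the grey genes centre near 0, with a median of -0.02.

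The most abundant transcripts that separated the lines carried no name in the study. CotAD_44291 was at 511, 459 and 369 RPKM in Gh1np and at 1.20, 1.37 and 1.56 RPKM in Gb1np (log2 fold change -8.42, SE 0.27 and edgeR adjusted p = 0.00011). It stayed apart at every stage and in both branch types, at 142 to 1211 RPKM in the 18 G. hirsutum libraries and 0.37 to 1.94 RPKM in the 18 of G. barbadense. CotAD_31058 was at 162, 113 and 133 RPKM in Gh1np, and Gb1np held 2 reads in all 3 libraries together. The ratio of the pooled levels was 7558, with a 95% counting interval of 2092 to 62412 that leaves out the spread between replicates. CotAD_68165 was at 251, 162 and 239 RPKM in Gh1np. Gb1np was without a read, a level at least 2719-fold lower when 3 reads are set over the group. Both genes were also below 0.4 RPKM in all other libraries of G. barbadense, and at no less than 25.2 RPKM (CotAD_31058) and 68.0 RPKM (CotAD_68165) in any G. hirsutum library.

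CotAD_25388 had the largest fitted difference, and its level also differed between the G. hirsutum lines. Gh1np held 110, 118 and 100 RPKM of it and Gb1np not a read, which is a level at least 4119-fold lower. Its mean in the normal-branch Gh1WT was only 4.06 RPKM, and it averaged 24.7 RPKM in Gh2np and 1.46 RPKM in Gh2WT, so line 3798 held more of it than Huazhong 94-3130 at both stages. Another pair of lower DEGs, CotAD_59341 and CotAD_37334, were at 25.8 to 29.7 and 30.0 to 40.5 RPKM in Gh1np and without a read in Gb1np, at least 569-fold and 536-fold lower. They differed at the later stages of Xinhai16. CotAD_59341 was at 6.92 to 8.54 RPKM in Gb2np and without a read in Gb3np, whereas CotAD_37334 had no read in either group.

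Abundant lower DEGs with reads in both lines showed smaller differences. CotAD_57251 was at 43.6, 36.05 and 48.2 RPKM in Gb1np and at 181, 181 and 185 RPKM in Gh1np (log2 fold change -2.17, SE 0.14 and adjusted p = 0.00030). CotAD_48217 was at 20.5 to 31.7 and 140 to 201 RPKM (log2 fold change -2.81, SE 0.25 and adjusted p = 0.00083), and CotAD_58668 at 16.3 to 22.9 and 145 to 208 RPKM (log2 fold change -3.26, SE 0.22 and adjusted p = 0.00037). For these 3 genes the Gb1np coverage of the gene model was 98.3 to 99.1%, close to the 99.5 to 99.6% of Gh1np, so reads lay along the whole model in both species. In the normal-branch pair CotAD_48217 and CotAD_58668 were lower too but not DEGs (edgeR adjusted p = 0.023 and 0.013). Their Gh1WT libraries ranged from 33.8 to 254 and from 28.1 to 217 RPKM.

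Among the higher DEGs, CotAD_16460 came closest to a presence and absence pattern at a high level. It was at 362, 375 and 273 RPKM in Gb1np and at 0.24, 0 and 0.21 RPKM in Gh1np, which is 8571 reads against 4 (log2 fold change 10.92, SE 0.46 and adjusted p = 0.00012). In the other G. hirsutum libraries it stayed at or below 0.96 RPKM. CotAD_28110 was at 156, 159 and 189 RPKM in Gb1np and at 14.6, 7.21 and 9.37 RPKM in Gh1np (log2 fold change 3.92, SE 0.33 and adjusted p = 0.00071). It had 968 reads over the 3 Gh1np libraries. Coverage of its gene model averaged 54.3% per library in Gh1np (42.3 to 66.7%) and 99.8% in Gb1np. CotAD_64252 was at 144, 143 and 162 RPKM in Gb1np and 40.0, 50.1 and 43.3 RPKM in Gh1np (log2 fold change 1.68, SE 0.12 and adjusted p = 0.00038), with a similar value in normal-branch seedlings (log2 fold change 1.54, SE 0.15 and adjusted p = 0.00030).

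CotAD_07370 and CotAD_45116 also differed in the nulliplex-branch pair without a DEG call in the normal-branch pair. CotAD_07370 was at 277, 272 and 356 RPKM in Gb1np and 9.22, 21.6 and 8.62 RPKM in Gh1np (log2 fold change 4.47, SE 0.38 and adjusted p = 0.00068), while Gb1WT was at 28.4 to 41.3 RPKM and Gh1WT at 10.5 to 37.0 RPKM. It averaged 194 RPKM in Gb2np and 150 RPKM in Gb3np, and 37.8 RPKM in Gb2WT and 24.5 RPKM in Gb3WT. CotAD_45116 was at 476, 462 and 570 RPKM in Gb1np and 113, 117 and 135 RPKM in Gh1np (log2 fold change 1.97, SE 0.15 and adjusted p = 0.00051), but Gb1WT at 240 to 329 RPKM overlapped Gh1WT at 203 to 617 RPKM. The test of the difference between the pairs gave 3.74 (SE 0.60, adjusted p = 0.0061) for CotAD_07370 and 2.58 (SE 0.46, adjusted p = 0.011) for CotAD_45116, both short of the threshold of 0.001.

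The largest differences with Gb1np higher were in genes without a read in Gh1np. CotAD_07913 was at 19.4, 16.2 and 16.3 RPKM in Gb1np, at least 627-fold higher. CotAD_65737 was at 16.6 to 17.1 RPKM (at least 393-fold higher) and CotAD_67574 at 21.3 to 27.9 RPKM (at least 308-fold higher), and these 3 genes were also DEGs in the normal-branch pair. CotAD_19985 was at 14.8, 7.03 and 14.3 RPKM in Gb1np, at least 553-fold higher, but had no read in the Gb1WT libraries. At the later stages it was again found in Xinhai16, at means of 4.40 and 6.56 RPKM, with 0 in Gb2WT and Gb3WT. CotAD_01546 was at 15.5, 14.1 and 10.5 RPKM in Gb1np, at least 545-fold higher than in Gh1np, while Gh1WT held 3.18 to 8.64 RPKM of it. The transcript was also without a read in Gh2np and Gh3np, so that among the 4 lines only 3798 lacked it.

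A small group of DEGs had no read in any library of one species. Across the series 2054 gene models had no read in the 18 G. barbadense libraries and 2314 none in the 18 of G. hirsutum. Only 95 and 59 of them had enough reads elsewhere to be tested, and 5 and 3 were DEGs. Over all genes tested 0.8% were DEGs lower in Gb1np and 0.622% higher. These 95 and 59 genes passed the filter only through the line that had reads, so their direction was fixed before the test. CotAD_43644 was at 25.7, 38.0 and 24.97 RPKM in Gh1np (at least 149-fold lower in Gb1np, adjusted p = 0.00072) and CotAD_31547 at 24.1, 32.4 and 19.8 RPKM (at least 138-fold lower, adjusted p = 0.00089). CotAD_27666, at 16.4, 30.4 and 28.1 RPKM in Gh1np and 0 in all G. barbadense libraries, missed the threshold (adjusted p = 0.0011). In the other direction CotAD_53760 was at 33.2, 28.2 and 30.9 RPKM in Gb1np and CotAD_50807 at 9.49, 9.22 and 10.5 RPKM, at least 190-fold and 248-fold higher. CotAD_66906 was at 18.7, 16.5 and 20.2 RPKM in Gb1np (at least 160-fold higher), and like CotAD_19985 it had no read in any Hai1 library. Of the 280 higher DEGs, 3 had no read in the 9 Hai1 libraries, 9 none in those of 3798 and 9 none in those of Huazhong 94-3130. Of the 360 lower DEGs, 16 had no read in the 9 libraries of Xinhai16 and 9 none in those of Hai1. Shares over all genes tested were not counted for these patterns. A higher DEG needs reads in Xinhai16 and a lower one in 3798 to be called.

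Coverage, the percent of a gene model over which reads were placed, offered a second view of how G. barbadense reads fell on the G. hirsutum models. Over 23933 genes with at least 100 reads in each of the 6 libraries the median difference in coverage was 0, 282 genes (1.18%) were covered over 10 points less in Gb1np and 84 (0.351%) over 10 points more. Among 13714 of them with log2 fold changes under 0.3 in size the counts were 88 and 28. The lower DEGs that had 100 reads in each library numbered 66 of 360. Their median coverage was 95.9% in Gb1np and 99.4% in Gh1np, with 11 of the 66 over 10 points less covered in Gb1np and 0 the other way. For 64 such higher DEGs the medians were 98.9% and 96.3%, with 0 less covered in Gb1np and 5 more. The less covered species was thus the one with fewer reads in both directions, and whether divergent sequence took part in the DEG calls was not tested. Gene model length was similar, with medians of 1176 and 1095 bases for higher and lower DEGs and 1089 bases over all genes tested.

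The 105 genes the study named were chosen on samples of this series for contrasts between branch types, mostly at the pre-squaring stage. Of them 92 could be tested, and SOT18 was the 1 DEG, where 1.42% of all genes were DEGs. DESeq2 called 15 of the 105, where it called 1663 higher and 2269 lower of 58986 genes in all. Without Gh1np replicate 2 edgeR called SOT18, TROL and the Kunitz inhibitor CotAD_22468, where it called 238 higher and 346 lower of 46028 genes. SOT18 (CotAD_44293), whose Arabidopsis homologue is a sulfotransferase of glucosinolate synthesis, was at 25.5, 22.6 and 42.8 RPKM in Gb1np and 0.74, 1.31 and 0.97 RPKM in Gh1np. The lowest Gb1np library was over the highest Gh1np library, and the log2 fold change was 4.83 (SE 0.31, edgeR adjusted p = 0.00030, range 0.00051 to 0.0029 without any 1 library). It had 78 reads over the Gh1np libraries and 2253 over those of Gb1np. Coverage of the model averaged 35.1% per library in Gh1np (30.8 to 41.7%) and 98.1% in Gb1np. In normal-branch seedlings SOT18 was a DEG in the same direction, with a log2 fold change of 3.55 (adjusted p = 8.2e-05), and it remained at 8.08 RPKM or more in every G. barbadense library and 3.89 RPKM or less in every one of G. hirsutum.

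**Figure D3:**
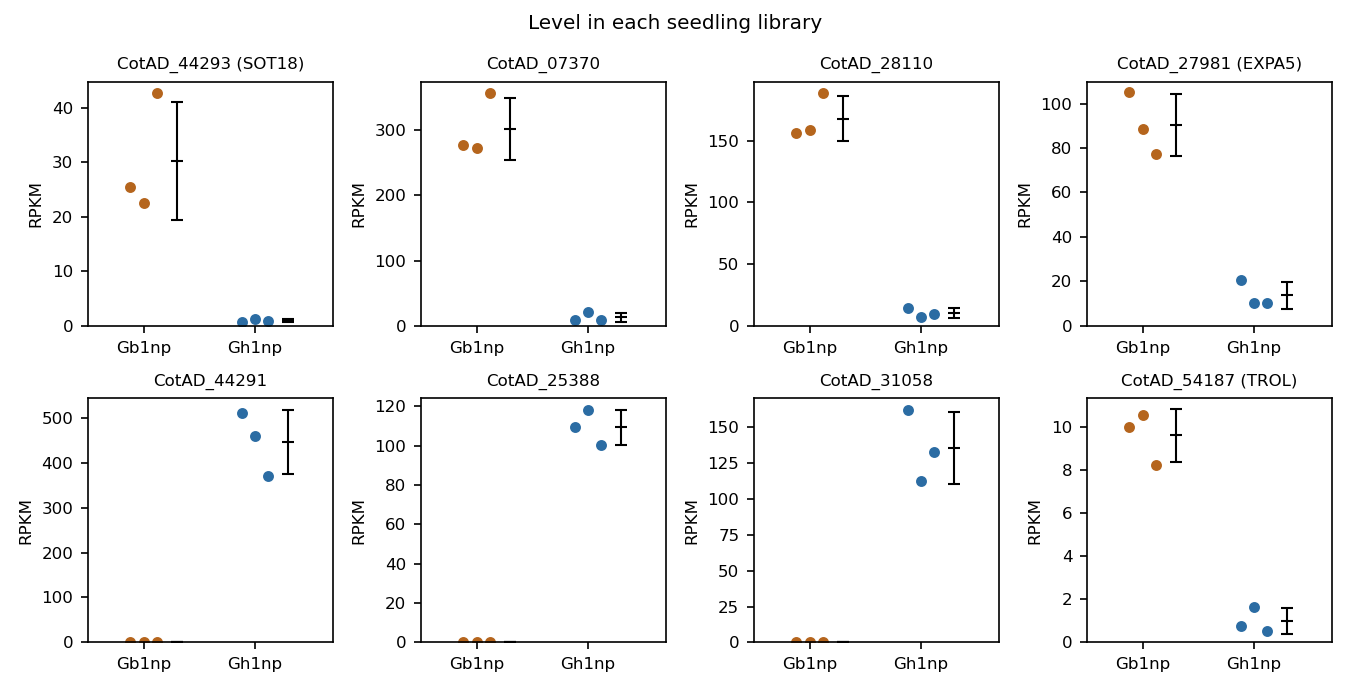
RPKM in each of the 3 Gb1np (brown) and 3 Gh1np (blue) libraries for 8 genes, 1 panel per gene with its own axis, with the mean and SD in black. In each panel the groups do not overlap, and SOT18 is at 22.6 to 42.8 RPKM in Gb1np and 0.74 to 1.31 RPKM in Gh1np.

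At a looser threshold, chosen after the values were seen, 13 named genes were higher and 7 lower in Gb1np with an adjusted p under 0.05. Over all genes tested the shares were 4.9% and 6.17%. The libraries of the groups did not overlap for any of the 20, which passing the threshold on the same libraries makes likely. In the normal-branch pair 16 of the 20 had the same sign and 3 were DEGs. There 3.56% of all genes tested were DEGs, and 67.4% of genes tested in both pairs shared the sign. The genes below were named for passing the looser threshold. EXPA5, an expansin that loosens the cell wall, was at 105, 88.4 and 77.5 RPKM in Gb1np and 20.5, 10.2 and 10.4 RPKM in Gh1np (log2 fold change 2.62, SE 0.35 and adjusted p = 0.0037). It was the 1 of the 8 cell wall genes tested that passed, while the median of the list was -0.67, or -0.05 without Gh1np replicate 2. TROL, a thylakoid protein that anchors the last enzyme of photosynthetic electron transport, was at 8.24 to 10.6 RPKM against 0.53 to 1.65 RPKM (log2 fold change 3.24, SE 0.39 and adjusted p = 0.0026). Of the other 4 green leaf genes the SOUL heme-binding gene passed at 1.89 to 3.05 against 0.22 to 0.95 RPKM (log2 fold change 2.03, adjusted p = 0.037), and CA1, GGR and the ferredoxin-related gene did not. In the normal-branch pair the SOUL gene leaned the other way, at 0.98 to 2.47 RPKM in Gb1WT and 2.24 to 4.31 RPKM in Gh1WT. CA1 stood at -0.38 (SE 0.81, adjusted p = 0.80), at 0.38 with limma, and at -0.92 (adjusted p = 0.046) without Gh1np replicate 2.

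Metabolic and transport genes at the looser threshold included the following. TPS5, of the trehalose phosphate synthase family, was at 7.84, 8.02 and 7.63 RPKM in Gb1np and 2.64, 3.12 and 3.42 RPKM in Gh1np (log2 fold change 1.29, SE 0.14 and adjusted p = 0.0018). It was the 1 of 5 carbon and energy genes tested that passed, and the list had 3 negative log2 fold changes and a median of -0.52. The vacuolar malate channel gene ALMT9 was at 8.66 to 13.0 and 1.83 to 4.45 RPKM (log2 fold change 1.53, adjusted p = 0.018), and the vacuolar nitrate exchanger gene CLC-A at 21.5 to 31.1 and 8.11 to 13.5 RPKM (1.29, adjusted p = 0.022). They were the 2 transport genes of 9 tested to pass, and the other 7 had positive log2 fold changes too, with a list median of 0.73 against -0.02 for all genes. Without Gh1np replicate 2 the list had 7 positive and 3 negative values of 10 tested and a median of 0.94. In secondary metabolism TT7, a flavonoid hydroxylase gene, was higher beside SOT18 (log2 fold change 1.08, adjusted p = 0.022). The acyltransferase CotAD_72047 was lower, at 0.79 to 0.99 against 3.41 to 7.15 RPKM (log2 fold change -2.79, adjusted p = 0.0019), and so was an O-methyltransferase (-1.66, adjusted p = 0.011). Coverage of the model of the last averaged 38.9% per library in Gb1np and 24.7% in Gh1np. Of the 9 secondary metabolism genes 2 were thus higher and 2 lower, with a median of 0.48.

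Genes of defence and receptors passed the looser threshold in both directions. Of 8 defence genes tested 1 was higher and 1 lower, with a list median of -0.09, and of 13 receptor and resistance genes 2 were higher and 2 lower. GLIP1 (CotAD_09729), a secreted lipase of defence in Arabidopsis, was at 7.10, 7.93 and 5.95 RPKM in Gb1np and 0.91 to 1.596 RPKM in Gh1np (log2 fold change 2.53, SE 0.30 and adjusted p = 0.0023). An NB-ARC protein gene (CotAD_73916) was higher as well (2.32, adjusted p = 0.0039), and RLP13 was at 0.43 to 0.67 against 0.13 to 0.23 RPKM (1.41, adjusted p = 0.035). The receptor-like kinase FER (-1.89, adjusted p = 0.0096) and RGH2 (-1.74, adjusted p = 0.0051) were lower. That left 9 of the 13 receptor and resistance genes tested short of the looser threshold, with a list median of -0.06. The Kunitz protease inhibitor CotAD_22468 was at 1.02, 0.71 and 0.24 RPKM in Gb1np and at 116, 2.89 and 56.3 RPKM in Gh1np (log2 fold change -6.58, SE 1.40 and adjusted p = 0.022), so its Gh1np level hung on the library and was lowest in replicate 2. An aspartyl protease gene (CotAD_00066) was at 0.36 to 1.08 against 4.84 to 8.28 RPKM (-3.12, adjusted p = 0.0049), the 1 of 10 genes of protein turnover and signalling that passed, in a list with 9 negative values and a median of -0.26. HAI1, a protein phosphatase of abscisic acid signalling, had 49 reads in Gb1np and 2 in Gh1np. The ratio was 25.4 with a counting interval of 6.65 to 215 (adjusted p = 0.012). In the normal-branch pair HAI1 overlapped, at 0.86, 0.62 and 0.33 RPKM in Gb1WT and at 4.71, 0.24 and 0.46 RPKM in Gh1WT. It was the 1 of 5 abscisic acid, cold and dehydration genes to pass, with a list median of 0.16.

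Of the 4 clock genes, 1 passed the looser threshold, with Gb1np lower, and the list median was -0.47. LHY and its relatives encode MYB-like factors of the morning loop of the circadian clock in Arabidopsis, and PRR5 is a pseudo-response regulator that represses them. The LHY homologue CotAD_17426 was at 0.38, 0.10 and 0.10 RPKM in Gb1np and at 4.36, 5.17 and 3.52 RPKM in Gh1np. The log2 fold change was -4.51 (SE 0.50, adjusted p = 0.0019), short of a DEG and past the looser threshold. It had 12 reads over the Gb1np libraries and 274 over those of Gh1np. Coverage of the model averaged 21.3% per library in Gb1np (12.8 to 28.9%) and 96.9% in Gh1np. LHY itself (CotAD_32839) was at 0.63 to 0.77 and 1.02 to 1.45 RPKM (-0.80, SE 0.23 and adjusted p = 0.065), without overlap. EPR1, a further MYB-like factor, was at 0.60 to 0.86 and 0.43 to 0.56 RPKM (0.49, adjusted p = 0.35), and PRR5 at 7.08 to 10.8 and 7.55 to 10.2 RPKM (-0.13, adjusted p = 0.69).

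In the normal-branch pair the LHY homologue was on the other side. Gb1WT was at 3.38, 5.36 and 5.11 RPKM and Gh1WT at 2.78, 2.49 and 2.38 RPKM, a log2 fold change of 0.88 (adjusted p = 0.041). The test of the difference between the pairs gave -5.39 (SE 0.53, edgeR adjusted p = 0.00018, and 7.2e-05 to 0.00096 without any 1 of the 12 libraries), past the threshold each time. At later stages Xinhai16 still held little of it, at means of 0.71 RPKM in Gb2np and 0.76 RPKM in Gb3np, whereas the other 3 lines were at 3.18 to 13.2 RPKM in group means. Near-identical copies could not be separated by the files, and the time of day at which each line was sampled is not given in the sources used here.

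**Figure D4:**
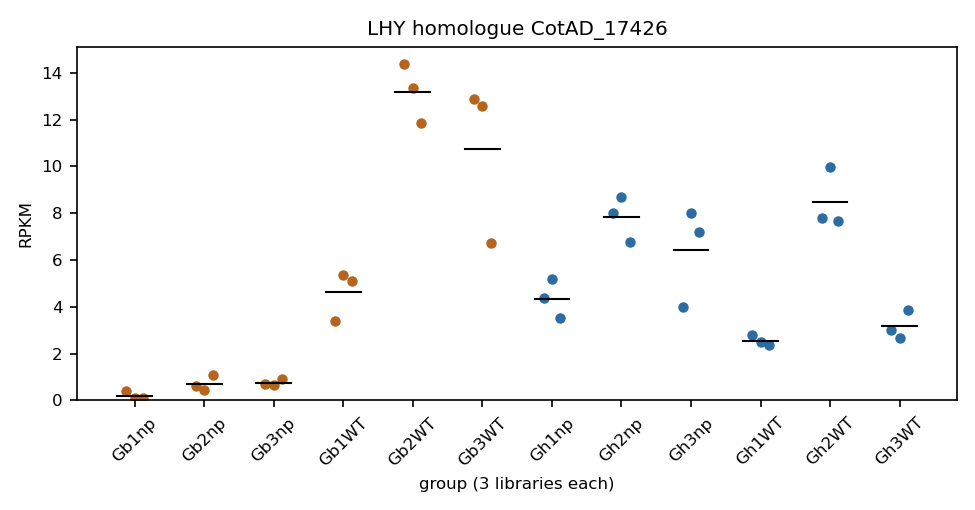
RPKM of the LHY homologue CotAD_17426 in each of the 3 libraries of the 12 groups, G. barbadense in brown and G. hirsutum in blue, with group means as lines. The Xinhai16 groups Gb1np, Gb2np and Gb3np average 0.19, 0.71 and 0.76 RPKM, and the other 9 groups average 2.55 RPKM or more.

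None of the 8 flowering and meristem regulators was a DEG (edgeR), and NAP alone passed the looser threshold. Of the 7 that could be tested 3 had an unadjusted p under 0.05, as did 13081 of all genes, and DESeq2 called 0. NAP, a NAC factor of leaf senescence in Arabidopsis, was at 6.53, 5.52 and 4.05 RPKM in Gb1np and 2.13, 1.38 and 2.27 RPKM in Gh1np (log2 fold change 1.40, SE 0.32 and adjusted p = 0.028). In the normal-branch pair NAP had the other sign, at 0 to 3.16 RPKM in Gb1WT and 1.41 to 2.70 RPKM in Gh1WT (log2 fold change -0.84, edgeR adjusted p = 0.63). SVP, a MADS-box repressor of flowering, was at 0.48, 0 and 0.69 RPKM in Gb1np and 1.57, 1.51 and 1.48 RPKM in Gh1np (-2.04, SE 0.76 and adjusted p = 0.13). HB-8, a homeobox gene of vascular tissue, was at 0.11, 0.64 and 0.64 against 1.06, 1.64 and 1.39 RPKM (-1.61, SE 0.56 and adjusted p = 0.11). For both the groups did not overlap, yet 19 and 24 reads in Gb1np leave the size of the difference uncertain.

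The remaining regulators gave no call and their groups overlapped. RAV1, an AP2/B3 factor, was the most abundant of them, at 229 to 356 RPKM in Gb1np and 129 to 359 RPKM in Gh1np, with the lowest value in Gh1np replicate 2 (log2 fold change 0.13, SE 0.41 and adjusted p = 0.86, and -0.21 without that library). IAA18, of the auxin-response repressors, was at 8.45 to 10.8 and 7.71 to 17.99 RPKM (-0.41, adjusted p = 0.49). NF-YC13, a subunit of a CCAAT-binding factor, was at 3.30 to 4.21 and 3.67 to 9.52 RPKM (-0.71, adjusted p = 0.23), and BRC1, a TCP factor that holds back axillary buds, at 0.28 to 0.66 and 0.28 to 0.62 RPKM (0.17, adjusted p = 0.86). SEP3 was not tested for want of reads.

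No gene of DNA replication, chromatin and the cell cycle was called at either threshold by edgeR, or by DESeq2, and 3 had an unadjusted p under 0.05. Of all 45024 genes tested by edgeR, 1.42% were DEGs, 11.1% passed the looser threshold and 13081 had an unadjusted p under 0.05. Of the list, 7 of the 9 had negative log2 fold changes, and the list median was -1.18 against -0.02 for all genes. In 7 of the 9, all but CYCD1;1 and the chromatin gene GTE4, Gh1np replicate 2 was the highest of the 6 libraries. Without it 5 of the 9 were negative, with a median of -0.15, and without it and Gb1np replicate 3 the figures were 7 and -0.86. PCNA2 was at -0.56 (SE 0.58, adjusted p = 0.58), and without Gh1np replicate 2, its highest library, the direction turned to 0.24 (adjusted p = 0.76). CYCD1;1, a G1 cyclin, was at 1.79, 0.93 and 3.26 RPKM in Gb1np and 1.08, 1.21 and 0.39 RPKM in Gh1np (1.07, SE 0.56 and adjusted p = 0.26).

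The species difference at most DEGs was found again in the independent normal-branch pair. Of the 280 higher DEGs 271 were tested in Gb1WT against Gh1WT, and 193 were DEGs in the same direction. Of the 360 lower DEGs 358 were tested and 272 were DEGs in the same direction. Over all genes that pair had 1.41% higher and 2.15% lower. The sign was shared by 598 of 629 DEGs tested in both pairs and by 67.4% of all 43745 genes tested in both, and across those genes the log2 fold changes correlated at r = 0.74, a value over genes, which are not independent replicates. The normal-branch pair had 1594 DEGs in all (3.56% of genes tested), 632 higher and 962 lower. Its libraries were non-overlapping in the same direction for 249 of the higher and 327 of the lower DEGs, against 16.9% and 20.7% of all genes.

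The differences held at the later stages of the same lines, where leaf numbers differed (by the labels 6 leaves in Gb2np and 5 in Gh2np, 9 in Gb3np and 12 in Gh3np). The study's methods give a range for Gb2np and a lower number for Gh3np. At the pre-squaring stage 268 of the 280 higher and 353 of the 360 lower DEGs had libraries that did not overlap in the same direction, where 27.5% and 26.3% of all genes tested were non-overlapping with G. barbadense higher and lower. At the squaring stage the counts were 266 and 356, against 26.8% and 27.7%. For 183 higher and 275 lower DEGs all 18 libraries of one species lay above all 18 of the other, as did 1.59% and 2.43% of all genes. The 18 and 18 include the 6 libraries of the call, in which no DEG overlapped, so the shares over all genes are not a like background.

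**Figure D5:**
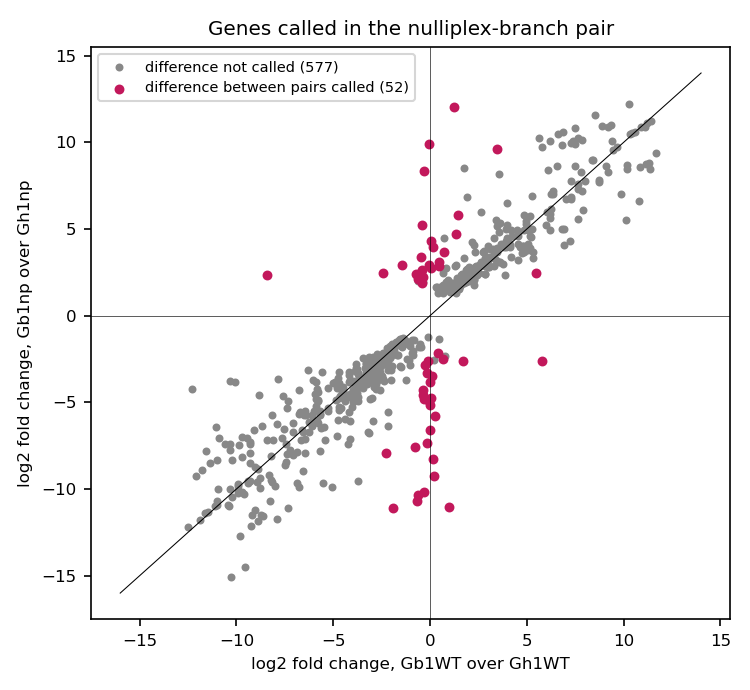
Log2 fold change of Gb1np over Gh1np (vertical) against that of Gb1WT over Gh1WT (horizontal) for 629 DEGs of the nulliplex-branch pair tested in both, 1 point per gene, with the line of equal values. The 52 genes in pink, for which the test of the difference was past the threshold, lie off the line, 40 of them within 1 of 0 on the horizontal axis.

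The test of the difference between the pairs asked where the species difference depended on the lines. It called 194 of 47005 genes, 0.257% with a larger Gb1np over Gh1np value and 0.155% with a smaller one, and 25 of the higher and 27 of the lower DEGs were among them. In 165 of the 194, by a rule of 5-fold chosen after the values were seen, each of the other seedling groups averaged over 5 times as much as the lowest of the 4. Gb1WT was the lowest group for 74 genes, Gb1np for 37, Gh1np for 30 and Gh1WT for 24. Only 8 genes had 1 group over 5 times each of the others. In 42 of the 194 a group of 3 libraries had no read at all.

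The largest differences between the pairs were as follows. CotAD_57941 had no read in Gb1np and 20.6, 21.0 and 28.1 RPKM in Gh1np, and was at 21.7 to 32.1 RPKM in Gb1WT and 13.9 to 15.6 RPKM in Gh1WT (difference -12.03, adjusted p = 6.5e-06). CotAD_29816 and CotAD_29817, with consecutive identifiers, were at 45.2 to 58.3 and 4.77 to 5.52 RPKM in Gb1np and at 66.6 to 101 and 7.02 to 7.40 RPKM in Gh1np, but at 0 to 0.17 RPKM and 0 in Gh1WT. Neither was a DEG between Gb1np and Gh1np. CotAD_66048 and CotAD_11229 had no read in Gb1WT, while Gb1np held 11.7 to 23.9 and 4.26 to 4.83 RPKM and Gh1np 4.74 to 9.34 and 2.76 to 4.91 RPKM. CotAD_27834 was at 14.3, 10.1 and 26.6 RPKM in Gb1np and 1.25, 0.93 and 0.40 RPKM in Gh1np (log2 fold change 4.21, SE 0.52 and adjusted p = 0.0028), and at 0 to 0.04 RPKM in Gb1WT.

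For 2 DEGs the normal-branch pair was a DEG the other way, and they are named for that. CotAD_25126 was at 9.45, 10.7 and 9.005 RPKM in Gb1np and 2.06, 1.90 and 1.58 RPKM in Gh1np, with no read in Gb1WT and 1.64 to 1.93 RPKM in Gh1WT. CotAD_76042 was at 2.82, 2.28 and 2.90 RPKM in Gb1np and 14.6, 17.6 and 13.7 RPKM in Gh1np, with 1.61 to 2.45 RPKM in Gb1WT and 0 to 0.05 RPKM in Gh1WT. In each case 1 normal-branch line was at or near 0 while the order of the nulliplex-branch lines was set by levels above 1 RPKM.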

How the data were processed

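Shoot-apex mRNA of 12 groups (4 lines, 3 stages, 3 libraries each) was sequenced by the study, and 6 libraries form the comparison. After quality and adaptor filtering the authors mapped reads with SOAP2, allowing 5 mismatches (version not given in the sources used here), to the G. hirsutum assembly of CAAS, and deposited read counts per gene model, from a column headed as unique reads. Treatment of reads that match several models is not given in the sources used here. RPKM values are also those the authors deposited, and recomputing them from counts, length and library total gave the same values. Coverage, a signal deposited by the authors, is the percent of the model length with reads. The coverage of a group is the mean of its 3 libraries. Unlisted genes were set to 0.

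Counts were tested with edgeR 4.0.16 (TMM, filterByExpr with a minimum count of 10, quasi-likelihood F test, Benjamini-Hochberg over all genes tested) in R 4.3.3. DEGs have an adjusted p under 0.001 and a log2 fold change over 1 in size, the study's thresholds. SE was taken as the size of the log2 fold change divided by the root of F. Gb1WT against Gh1WT and the difference between the pairs were tested likewise, the latter in 1 fit of 12 libraries. Folds against groups without a read set 3 reads over the group, and for 1 to 3 reads exact 95% intervals are given. Bounds and intervals cover counting error only. The labels do not say whether replicates came from separate plants, and the study calls them biological, so p values measure the spread between these libraries.

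Members and gene lists were chosen with earlier results of these data known. Named were all clock, flowering and meristem genes, up to 4 DEGs of each other list, PCNA2, CYCD1;1 and CA1, the 5 largest and the 5 most abundant unnamed non-overlapping DEGs in each direction, the 3 most abundant genes in each direction without a read in the other species, and the 3 largest differences between the pairs in each direction. Alternatives were DESeq2 1.42.0, RLE size factors, no filter, a fit of all 36 libraries, a block for replicate number, limma 3.58.1 on log2(RPKM + 1) or log2(RPKM + 0.1) with a mean of at least 0.5 RPKM in 1 group, and leaving out each library. Leaving out Gh1np replicate 2 with Gb1np replicate 3 and the adjusted p of 0.05 were chosen after seeing the data. The scripts were tested on simulated data. The small RNA table was not used.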

Additional observations from a re-analysis of the deposited data

Results flagged for a closer look

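The test of the difference between the nulliplex-branch and normal-branch pairs marked 121 genes with a larger and 73 with a smaller Gb1np over Gh1np value. Of the genes named in the report, 8 were among them. The LHY homologue CotAD_17426 had a difference of -5.39 on the log2 scale, CotAD_57941 of -12.03, CotAD_29817 of -10.65 and CotAD_29816 of -10.57. Positive differences were 12.43 for CotAD_66048, 11.71 for CotAD_11229, 11.49 for CotAD_27834 and 10.80 for CotAD_01546. In all of these but the LHY homologue, CotAD_27834 and CotAD_29816, a group of 3 libraries had no read, so the fitted size depends on the prior count and is not a measured fold. The pairs differ in line as well as branch type, and these cannot be told apart. Groups of 3 libraries were too small for a test of single outlying libraries.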

How the results depend on the processing

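The DEG counts moved with the test. For Gb1np against Gh1np, with 280 higher and 360 lower DEGs, DESeq2 gave 1663 and 2269, all 36 libraries in 1 fit 1892 and 2690, limma on log2(RPKM + 1) 469 and 566, limma on log2(RPKM + 0.1) 491 and 644, an adjusted p of 0.05 2208 and 2776, and leaving out Gh1np replicate 2 with Gb1np replicate 3 139 and 190. Without 1 library the counts ran from 0 to 238 and from 0 to 346. For Gb1WT against Gh1WT (632 and 962), DESeq2 gave 2026 and 2638, all 36 libraries 2209 and 2891, and leaving out 1 library 141 to 451 and 226 to 805. For the difference between the pairs (121 and 73), DESeq2 gave 451 and 335, all 36 libraries 399 and 341, and leaving out 1 library 62 to 118 and 45 to 74. The cause of these shifts was not tested, and the fits that leave out libraries also hold fewer samples. RLE size factors and no filter kept all counts within 1.5 times.

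The replicate number as a block gave no DEG for Gb1np against Gh1np (0 higher and 0 lower by edgeR, with 9765 genes at an unadjusted p under 0.05), 188 and 367 for Gb1WT against Gh1WT, and 52 and 42 for the difference. Deviations of same-numbered libraries correlated at 0.27, -0.49 and -0.54, while Gb1np replicate 3 and Gh1np replicate 2 correlated at 0.61. With 3 libraries per group these values cannot settle whether the numbers pair the libraries.

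Of 26 named DEGs, 26 were called by DESeq2, by both limma settings, with RLE size factors and with no filter, 25 with all 36 libraries, 23 without Gh1np replicate 2, 0 to 2 without any other library and 0 with the block. The direction of 5 genes short of a call turned when 1 library was left out. PCNA2 ranged from -1.03 to 0.24, the latter without Gh1np replicate 2, IAA18 from -0.69 to 0.037 and CA1 from -0.92 to 0.093, positive without Gh1np replicate 1. RAV1 ranged from -0.21 to 0.47, negative without Gh1np replicate 2 or Gb1np replicate 2, and BRC1 from -0.10 to 0.70, negative without Gb1np replicate 3, Gh1np replicate 2 or Gh1np replicate 3. Depth limits genes such as SVP and HAI1, with under 50 reads in a group.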
